A study of Mus musculus with 14 samples.

Results

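The 10 genes described here belong to the disease associated microglia program and were followed across 14 RNA-seq libraries of mouse brain hemispheres: Trem2, Tyrobp, Apoe, Lpl, Itgax, Cst7, Clec7a, Spp1, Gpnmb and Axl. They were chosen by symbol as the lipid and phagocytic genes of the Trem2 dependent program, and all 10 were found among the 46904 genes of the expression table. Libraries came from male mice on a C57BL/6J background, 12 weeks old, either wild-type (Cort+/+) or carrying a constitutive deletion of cortistatin in all cells (Cort-/-). In every animal the middle cerebral artery was blocked for 20 min with a filament passed through the left common carotid artery and then reperfused (MCAO), and brains were taken 48 h later. The groups were 3 contralateral (CL) and 3 ischemic (MCAO) hemispheres of Cort+/+ mice, and 3 CL and 5 MCAO hemispheres of Cort-/- mice. The controls are therefore hemispheres of operated mice, since no library of an unoperated mouse was analysed here. Replicates are described as biologically independent, but no animal is named for a library, so p-values measure only the spread between these libraries. The study describes 3 CL and 5 MCAO replicates. The Cort+/+ MCAO libraries carry replicate numbers 2, 3 and 4, and other numbers of that group were not analysed here. By the methods of the study, replicates that grouped clearly were kept where variability was large. Whether this was done in the Cort+/+ MCAO group is not given in the sources used here, so the spread behind its p-values may be that of chosen libraries.

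In microglia, the phagocytes of the brain, Trem2 is a surface receptor for lipids and lipoproteins, and Tyrobp (also called DAP12) is the adaptor through which it signals by Syk family kinases. When microglia meet myelin debris, dying cells or amyloid, this receptor pair supports a state in which homeostatic genes are lowered and genes for lipid handling, lysosomes and phagocytosis are raised. The other genes followed here belong to that state: the receptors Clec7a and Axl, the integrin subunit Itgax, the secreted or membrane glycoproteins Spp1 and Gpnmb, the protease inhibitor Cst7, and the lipid proteins Lpl and Apoe.

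Expression was given by the authors as RPKM, reads divided by gene length and by library size, so levels can be set side by side between genes. Each library held between 25989673 and 43032291 reads on genes, recovered from these values. In Cort+/+ libraries Cort had 64 to 139 reads, whereas the Cort-/- libraries had 0 to 4. The hemispheres carried the markers of whole brain tissue, since 5 neuronal genes summed to between 1266 and 1849 RPKM, 8 astrocyte genes to between 856 and 1111 RPKM, and 9 general microglia and macrophage genes to between 159 and 608 RPKM. In bulk tissue of this kind, more cells of a type and more RNA per cell cannot be told apart.

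The 10 genes differed widely in level. In Cort+/+ CL hemispheres Apoe had the highest mean, 583 ± 75.5 RPKM (SD, n = 3), followed by Tyrobp with 18.8 ± 4.71, Axl with 11.5 ± 0.653, Spp1 with 9.68 ± 1.40, Trem2 with 6.18 ± 0.680 and Lpl with 5.03 ± 0.618 RPKM. Gpnmb (0.728 ± 0.175 RPKM), Clec7a (0.185 ± 0.0774 RPKM), Cst7 (0.102 ± 0.113 RPKM) and Itgax (0.0469 ± 0.0145 RPKM) were below 1 RPKM there, and Itgax rested on 6 to 10 reads and Cst7 on 0 to 8 reads per library. Trem2 and Lpl overlapped between libraries, as did Clec7a with Cst7 and Cst7 with Itgax, so their order is not resolved. In MCAO hemispheres of Cort-/- mice Spp1 had moved to the place below Apoe, with 107 ± 54.8 RPKM (SD, n = 5), and its libraries overlapped those of Tyrobp (47.0 ± 13.1 RPKM). There Trem2 overlapped Axl, Gpnmb overlapped Cst7 and Cst7 overlapped Clec7a, while Itgax stayed the lowest at 0.491 ± 0.144 RPKM.

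**Figure D1:**
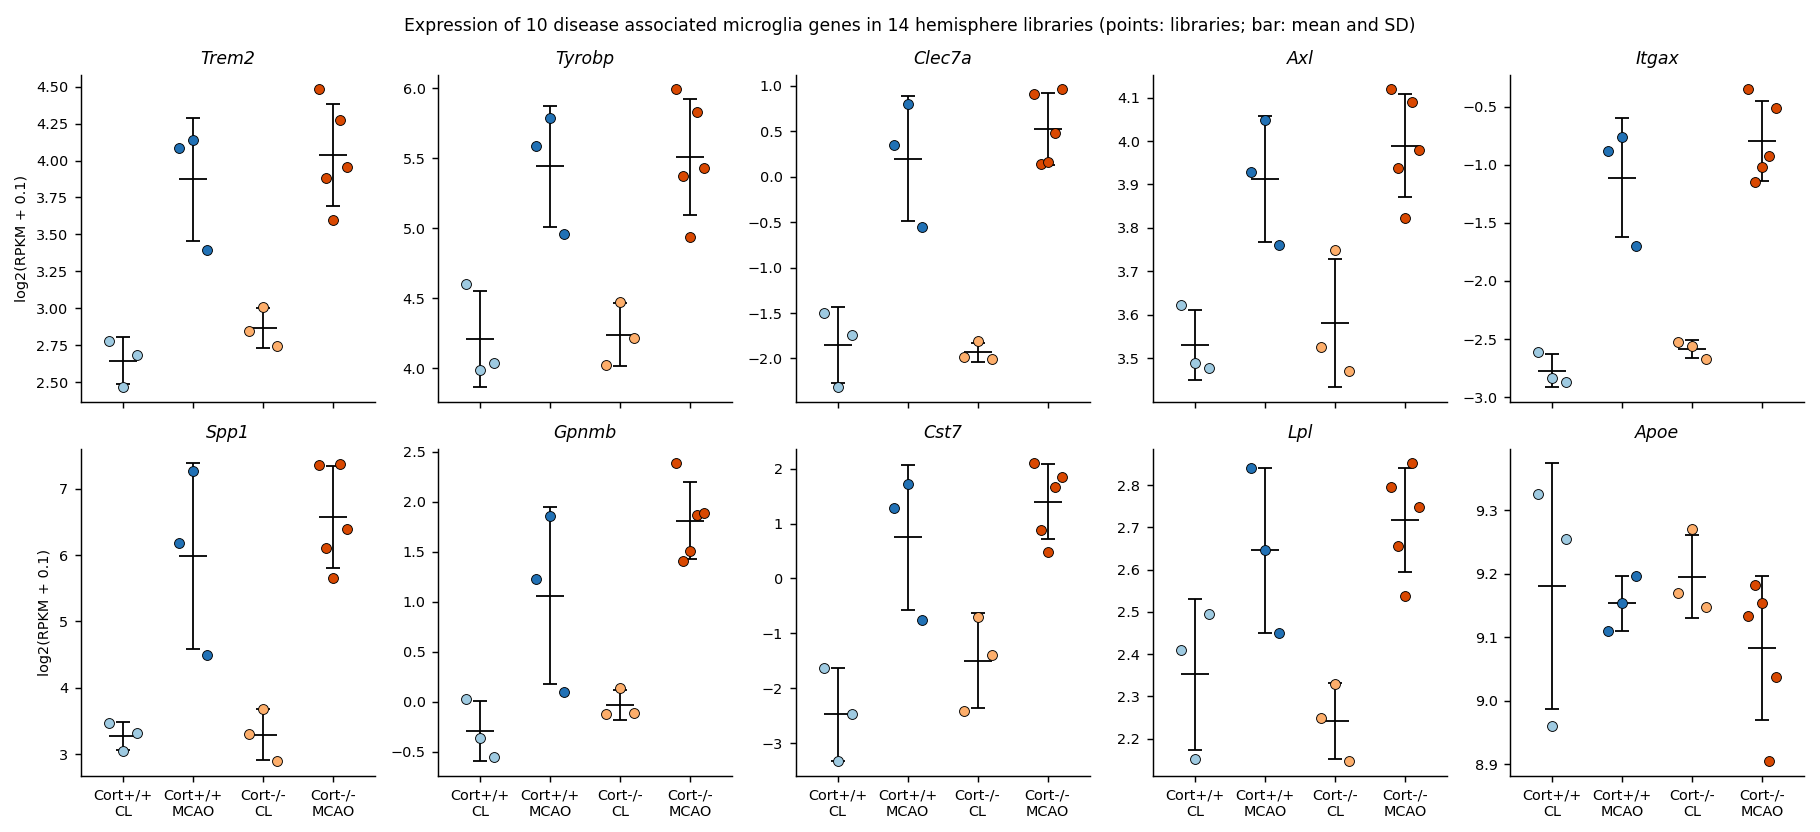
Expression of each gene by library on the scale of log2(RPKM + 0.1), with 1 panel per gene and its own vertical axis; points are libraries and black bars give the mean and SD of the 3 or 5 libraries of a group. In 8 panels all Cort+/+ MCAO libraries lie above all CL libraries, in 9 panels this holds for Cort-/- mice, and Apoe overlaps in both genotypes.

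Trem2 lies on the plus strand of chromosome 17 between positions 48653429 and 48661175 (GRCm39, GENCODE M39). In Cort+/+ mice its CL libraries held 6.78, 5.44 and 6.33 RPKM and its MCAO libraries 16.9, 17.5 and 10.4 RPKM. In Cort-/- mice the CL libraries held 7.11, 7.94 and 6.59 RPKM and the MCAO libraries 22.2, 14.7, 12.0, 19.2 and 15.5 RPKM. Every MCAO library was above every CL library of either genotype. The difference was 1.23 ± 0.22 (SE) in log2(RPKM + 0.1) in Cort+/+ mice, which did not pass the limma test (adjusted p = 0.112), and 1.17 ± 0.20 in Cort-/- mice, which did (adjusted p = 0.0147).

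Tyrobp, the signalling adaptor of Trem2 and of several other myeloid receptors, lies on chromosome 7 between positions 30113170 and 30117010. Its Cort+/+ CL libraries held 24.2, 15.8 and 16.3 RPKM and the MCAO libraries 48.0, 55.0 and 30.9 RPKM. Its Cort-/- CL libraries held 16.2, 22.1 and 18.5 RPKM and the MCAO libraries 63.5, 41.3, 30.5, 56.6 and 43.0 RPKM. The groups did not overlap, although the lowest MCAO libraries of both genotypes, 30.9 and 30.5 RPKM, came close to the highest CL library of 24.2 RPKM. The log2 differences were 1.23 ± 0.27 (SE; limma adjusted p = 0.195) in Cort+/+ and 1.27 ± 0.24 (adjusted p = 0.0228) in Cort-/- mice. Receptor and adaptor therefore had log2 differences of similar size, between 1.17 and 1.27.

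Clec7a encodes Dectin-1, a lectin receptor for beta-glucans that also signals through Syk, and lies on the minus strand of chromosome 6 between positions 129438554 and 129449742. Cort+/+ CL libraries held 0.254, 0.102 and 0.200 RPKM (21, 8 and 17 reads), against 1.17, 1.64 and 0.582 RPKM (96, 152 and 41 reads) in MCAO libraries. Cort-/- CL libraries held 0.153, 0.185 and 0.149 RPKM (11 to 14 reads), against 1.78, 1.00, 1.01, 1.29 and 1.84 RPKM (61 to 176 reads) in MCAO libraries. Neither genotype showed an overlap, and the lowest MCAO library, Cort+/+ replicate 4, was above the highest CL library (0.582 against 0.254 RPKM). Of the 10 genes it had the smallest adjusted p in both genotypes, with a log2 difference of 2.04 ± 0.34 (SE; limma adjusted p = 0.0855) in Cort+/+ and 2.46 ± 0.30 (adjusted p = 0.00625) in Cort-/- mice.

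Axl, a receptor tyrosine kinase of the TAM family that binds Gas6 and helps phagocytes take up dying cells, lies on the minus strand of chromosome 7 between positions 25456535 and 25488329. Its CL libraries held 12.2, 11.1 and 11.0 RPKM in Cort+/+ and 11.4, 13.3 and 11.0 RPKM in Cort-/- mice. Its MCAO libraries held 15.1, 16.4 and 13.5 RPKM in Cort+/+ and 17.3, 15.2, 14.1, 16.9 and 15.7 RPKM in Cort-/- mice. The groups did not overlap within a genotype, but the step was small beside those of the other receptors. In log2 units it was 0.38 ± 0.10 (SE; limma adjusted p = 0.250) in Cort+/+ and 0.41 ± 0.09 (adjusted p = 0.0332) in Cort-/- mice.

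Itgax, the alpha chain of the integrin CD11c, pairs with Itgb2 and is also known from dendritic cells. It lies on chromosome 7 between positions 127728668 and 127749829. Its Cort+/+ CL libraries held 0.0636, 0.0400 and 0.0371 RPKM, or 10, 6 and 6 reads, and the MCAO libraries 0.443, 0.492 and 0.209 RPKM, or 69, 87 and 28 reads. Its Cort-/- CL libraries held 0.0736, 0.0694 and 0.0570 RPKM, or 8 to 11 reads, and the MCAO libraries 0.684, 0.351, 0.393, 0.426 and 0.602 RPKM, or 45 to 129 reads. Every MCAO library had more reads than any CL library. On the log2 scale the difference was 1.66 ± 0.28 (SE; limma adjusted p = 0.0954) in Cort+/+ and 1.79 ± 0.25 (adjusted p = 0.00887) in Cort-/- mice. At such levels the added 0.1 RPKM holds the log2 difference down, and the ratio of mean RPKM was 8.12 in Cort+/+ and 7.36 in Cort-/- mice. Of 7 dendritic cell markers, 0 changed in either genotype by the limma test, and none had an unadjusted p under 0.05. Among these, Xcr1 had no read in any CL library and at most 1 in an MCAO library, and Clec9a at most 3 reads.

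Because 9 of the genes were higher together in MCAO hemispheres, the 250 bases before their annotated starts were searched on both strands for the letters of 4 sites known from macrophage genes. TGANTCA, the core bound by AP-1, stands in 6.17% of the 21751 promoters of protein-coding genes of this length and in 2 of the 10, Trem2 and Itgax. Both are shown here 5′ to 3′ on the plus strand of GRCm39 with the matching letters in capitals, at 9 to 3 bases before the start of Trem2 and 221 to 215 bases before the start of Itgax.
Trem2 promoter, chr17:48653179-48653428: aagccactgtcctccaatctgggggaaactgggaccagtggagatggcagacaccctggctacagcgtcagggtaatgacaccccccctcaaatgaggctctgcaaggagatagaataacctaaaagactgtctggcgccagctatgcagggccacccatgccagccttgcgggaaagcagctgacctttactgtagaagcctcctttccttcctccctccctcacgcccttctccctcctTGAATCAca
Itgax promoter, chr7:127728418-127728667: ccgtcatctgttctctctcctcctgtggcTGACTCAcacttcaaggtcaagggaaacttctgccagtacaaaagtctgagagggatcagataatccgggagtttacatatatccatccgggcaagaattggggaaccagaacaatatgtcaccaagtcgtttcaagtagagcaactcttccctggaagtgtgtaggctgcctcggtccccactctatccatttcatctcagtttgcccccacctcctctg
CATGTG, the M-box bound by MITF and its relatives, stands in 10.5% of promoters and in 3 of the 10 (Tyrobp, Apoe and Spp1). GAGGAAGT, the core bound by PU.1, stands in 2.08% and CACGTG, the E-box of lysosomal genes, in 6.26% of promoters, and neither was found in the 10. These matches describe letters in a short window and were not tested against the expression values.

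Spp1 encodes osteopontin, a secreted glycoprotein that binds integrins and Cd44, and lies on chromosome 5 between positions 104582165 and 104589235. Cort+/+ CL libraries held 11.0, 8.19 and 9.89 RPKM and MCAO libraries 72.8, 154 and 22.4 RPKM. Cort-/- CL libraries held 9.82, 12.7 and 7.36 RPKM and MCAO libraries 164, 68.8, 50.1, 166 and 83.7 RPKM. No MCAO library came down to the CL range, but the MCAO libraries themselves spread widely, from 22.4 to 154 RPKM in Cort+/+ mice. The log2 difference was 2.70 ± 0.59 (SE; limma adjusted p = 0.194) in Cort+/+ and 3.28 ± 0.53 (adjusted p = 0.0130) in Cort-/- mice. The annotated exons of Spp1 share 362 bases (12.7%) with Gm42793 on the same strand, and how reads in those bases were assigned is not given in the sources used here. Gm42793 had a mean of 9.56 RPKM over all libraries, against 60.1 RPKM for Spp1.

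Gpnmb, a membrane glycoprotein of phagocytic and pigment cells, lies on chromosome 6 between positions 49013426 and 49047863. Cort+/+ CL libraries held 0.922, 0.679 and 0.582 RPKM and MCAO libraries 2.24, 3.52 and 0.973 RPKM. Cort-/- CL libraries held 0.816, 0.999 and 0.828 RPKM and MCAO libraries 5.12, 2.56, 2.74, 3.56 and 3.61 RPKM. In Cort+/+ mice the lowest MCAO library (0.973 RPKM, replicate 4) was only just above the highest CL library (0.922 RPKM), while in Cort-/- mice the gap was wide. Its log2 difference was 1.36 ± 0.36 (SE; limma adjusted p = 0.275) in Cort+/+ and 1.85 ± 0.32 (adjusted p = 0.0169) in Cort-/- mice.

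Cst7 encodes cystatin F, an inhibitor of lysosomal cathepsins, and lies on chromosome 2 between positions 150412284 and 150420864. Cort+/+ CL libraries held 0.224, 0 and 0.0815 RPKM, or 8, 0 and 3 reads, and MCAO libraries 2.34, 3.18 and 0.491 RPKM, or 83, 128 and 15 reads. Cort-/- CL libraries held 0.0883, 0.518 and 0.282 RPKM, or 3, 17 and 9 reads, and MCAO libraries 4.17, 1.75, 1.30, 3.08 and 3.49 RPKM, or 34 to 179 reads. MCAO and CL libraries did not overlap within a genotype, but Cort+/+ MCAO replicate 4 (0.491 RPKM) lay below Cort-/- CL replicate 2 (0.518 RPKM). The difference in log2 units was 3.22 ± 0.66 (SE; limma adjusted p = 0.161) in Cort+/+ and 2.89 ± 0.59 (adjusted p = 0.0296) in Cort-/- mice. With so few CL reads its size depends on the number added before taking logarithms, from 1.33 with 1 RPKM to 4.70 with 0.01 RPKM in Cort+/+ mice and from 1.49 to 3.36 in Cort-/- mice. With 0.01 RPKM added Cst7 no longer passed the limma test in Cort-/- mice (adjusted p = 0.0855).

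Of the lipid proteins, Lpl was higher in Cort-/- MCAO hemispheres by a small step and Apoe passed no test. Lpl, lipoprotein lipase, which releases fatty acids from lipoproteins, lies on chromosome 8 between positions 69284603 and 69360100. Its CL libraries held 5.22, 4.34 and 5.54 RPKM in Cort+/+ and 4.65, 4.93 and 4.33 RPKM in Cort-/- mice. Its MCAO libraries held 7.07, 6.16 and 5.36 RPKM in Cort+/+ and 6.85, 6.20, 5.71, 7.12 and 6.62 RPKM in Cort-/- mice. Cort+/+ MCAO replicate 4 fell among the CL libraries, whereas the Cort-/- groups did not overlap. The log2 difference was 0.29 ± 0.11 (SE; limma adjusted p = 0.525) in Cort+/+ and 0.48 ± 0.10 (adjusted p = 0.0359) in Cort-/- mice.

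Apoe, the main lipid carrier of the brain, which astrocytes make in large amounts besides microglia, lies on the minus strand of chromosome 7 between positions 19430034 and 19434947. Cort+/+ CL libraries held 641, 498 and 611 RPKM and MCAO libraries 552, 569 and 586 RPKM. Cort-/- CL libraries held 575, 617 and 567 RPKM and MCAO libraries 562, 581, 569.7, 479 and 525 RPKM. The groups overlapped in both genotypes. The log2 difference was -0.03 (95% interval -0.23 to 0.18; limma adjusted p = 1) in Cort+/+ and -0.11 (-0.29 to 0.07; adjusted p = 0.653) in Cort-/- mice, and the upper ends of both intervals lie below the 0.38 found for Axl.

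**Figure D2:**
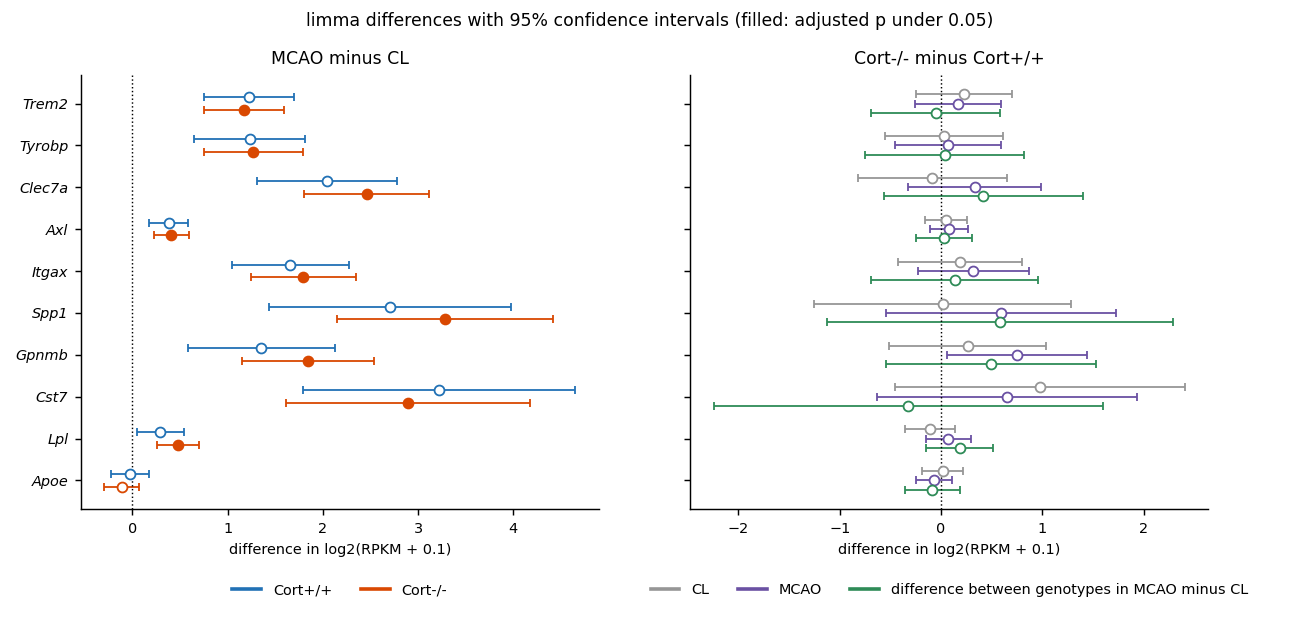
Differences in log2(RPKM + 0.1) from the limma model with 95% confidence intervals, as MCAO minus CL in each genotype (left) and as Cort-/- minus Cort+/+ in each hemisphere with the interaction (right); filled points have an adjusted p under 0.05. On the left the 9 filled points all belong to Cort-/- mice and lie between 0.41 and 3.28, while on the right no point is filled.

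Counted together, none of the 10 genes passed the limma test when MCAO was set against CL in Cort+/+ mice at an adjusted p under 0.05, where 0.0108% of all 46102 genes tested did. Without adjustment 9 of them had a p under 0.05, against 7.87% of all genes, and with limma voom on recovered reads 3 passed (Trem2, Itgax and Clec7a). In 8 of the 10 every MCAO library was above every CL library, against 5.73% of all genes. The median log2 difference of the 10 was 1.29, and that of all genes was 0.00. The count depended on a single library, since without Cort+/+ MCAO replicate 4, 7 genes passed (Trem2, Tyrobp, Itgax, Cst7, Clec7a, Spp1 and Gpnmb). The count was 2 with 0.01 RPKM added in place of 0.1, and 1 when genes averaging under 0.5 RPKM were left out. The shares of all genes given here are those of the main fit. Whether the gains in the other fits were particular to these genes was therefore not tested. The study ran edgeR at a false discovery rate under 0.05. By that test it named Spp1 and Cst7 among genes higher in MCAO hemispheres of both genotypes.

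In Cort-/- mice 9 of the 10 genes were higher in MCAO hemispheres by the limma test, against 1.34% of all genes, and 9 did not overlap between the hemispheres, against 4.85%. Their median log2 difference was 1.53. Only Clec7a and Itgax passed in each of the 14 fits that left out 1 library. Trem2, Spp1 and Gpnmb passed in 12 of them, Tyrobp in 10, Cst7 in 9, and Lpl and Axl in 7. The count fell to 2 without CL replicate 1 or 3, and to 5 without MCAO replicate 1 or 4. It was 8, without Cst7, with 0.01 RPKM added, and 3 (Itgax, Clec7a and Gpnmb) when the model held only the Cort-/- libraries. With the replicate number as a fixed block, which joins libraries of both genotypes under 1 number, it was 0. With genotype and number together as a random effect it was 9.

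When the changes in both genotypes were averaged, 9 of the 10 were higher in MCAO hemispheres, against 2.52% of all genes tested higher. Adjusted p-values of these 9 ran from 0.00077 for Clec7a to 0.0147 for Lpl in the limma model. Apoe had an average log2 difference of -0.07 ± 0.06 (SE; adjusted p = 0.689). Leaving out any 1 library changed none of these 10 calls. With the replicate number as a fixed block 7 passed, without Lpl (limma adjusted p = 0.126) and Axl (0.0676). The average rests on the same libraries as the comparisons within each genotype.

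The genotypes overlapped at all 10 genes in both hemispheres. In CL hemispheres 0 of the 10 genes differed between Cort-/- and Cort+/+ mice in the limma test, where 0.0152% of all genes did, 0 had an unadjusted p under 0.05 (3.91% of all genes), and limma voom called 0. Log2 differences ran from -0.11 for Lpl to 0.97 for Cst7, which had 0 to 17 reads and a 95% interval of -0.46 to 2.40. Axl had an interval of -0.15 to 0.26 and Trem2 one of -0.25 to 0.70. Interval width did not follow read number alone. Spp1, with 393 to 694 reads, had an interval of -1.26 to 1.29. Itgax, with 6 to 11 reads, had one of -0.43 to 0.80. Each gene has 1 spread over all 4 groups in this model, so its MCAO libraries also set the width of its CL interval. For Spp1 the SD was 14.4% (Cort+/+) and 26.6% (Cort-/-) of the mean in CL libraries, and 79.9% and 51.4% in MCAO libraries. At the level of Itgax the added 0.1 RPKM also narrows the interval. All 10 overlapped between the genotypes, where 3.9% of all genes were higher and 2.35% lower without overlap. In the same comparison neutrophil genes were positive in 7 of 7 cases (median 0.58), with 0 called by limma and 0 at an unadjusted p under 0.05.

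In MCAO hemispheres 0 of the 10 genes differed between the genotypes in the limma test, where 0.0174% of all genes did, and limma voom called 0. Of the 10 differences 9 were positive, with a median of 0.24 against 0.00 for all genes, and all 10 overlapped. General microglia and macrophage genes were likewise positive in 9 of 9 cases (median 0.32), infiltrating monocyte and macrophage genes in 8 of 8 (median 0.64), border macrophage genes in 6 of 6 (median 0.55) and neutrophil genes in 6 of 7 (median 0.49), with 0 called by limma in each list and 0, 1, 1 and 1 at an unadjusted p under 0.05. Their part in the differences of the 10 genes was not tested. Among all genes 0.861% were higher and 1.56% lower without overlap. Gpnmb had the largest difference, 0.75 (95% interval 0.06 to 1.44), and was the only one of the 10 with an unadjusted p under 0.05 (0.0355; limma adjusted p = 1), against 3.82% of all genes. Its mean was 2.24 ± 1.27 RPKM (SD, n = 3) in Cort+/+ libraries and 3.52 ± 1.01 RPKM (n = 5) in Cort-/- libraries. Cst7 followed with 0.65 (-0.63 to 1.93) and Spp1 with 0.59 (-0.54 to 1.73). Most of these differences came down with 1 library: without Cort+/+ MCAO replicate 4 the difference was 0.27 for Gpnmb, -0.10 for Cst7, -0.15 for Spp1, -0.07 for Trem2 and -0.18 for Tyrobp.

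The response to ischemia itself was compared by the interaction, the log2 change in Cort-/- minus that in Cort+/+ mice. None of the 10 genes passed, where 0.00217% of all genes did, 0 had an unadjusted p under 0.05 (3.31% of all genes), and limma voom called 0. Estimates ran from -0.32 for Cst7 (95% interval -2.24 to 1.60) to 0.58 for Spp1 (-1.13 to 2.28). The narrowest intervals were those of Apoe (-0.36 to 0.19) and Axl (-0.25 to 0.30), and Trem2 had an interval of -0.69 to 0.58. So although 9 genes passed in Cort-/- and 0 in Cort+/+ mice, the response was not shown to differ between them. The comparisons share libraries, and Cort-/- mice had 5 MCAO libraries against 3.

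The same libraries stood high or low for most of the genes. Among Cort+/+ MCAO libraries, replicate 4 was the lowest for 9 of the 10 genes and the highest for Apoe, and replicate 3 was the highest for 8. Among Cort+/+ CL libraries replicate 1 was the highest for 9, with Lpl as the exception. Among Cort-/- CL libraries replicate 2 was the highest for 9, with Itgax as the exception, and among Cort-/- MCAO libraries replicate 1 was the highest for 6 and replicate 3 the lowest for 6. Across the 14 libraries, deviations from the group means of the 9 genes other than Apoe correlated with Pearson r between 0.517 and 0.934 (median 0.812 over 36 pairs), whereas Apoe correlated with them between -0.157 and 0.154. These correlations describe 14 libraries whose genes share depth and tissue composition.

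**Figure D3:**
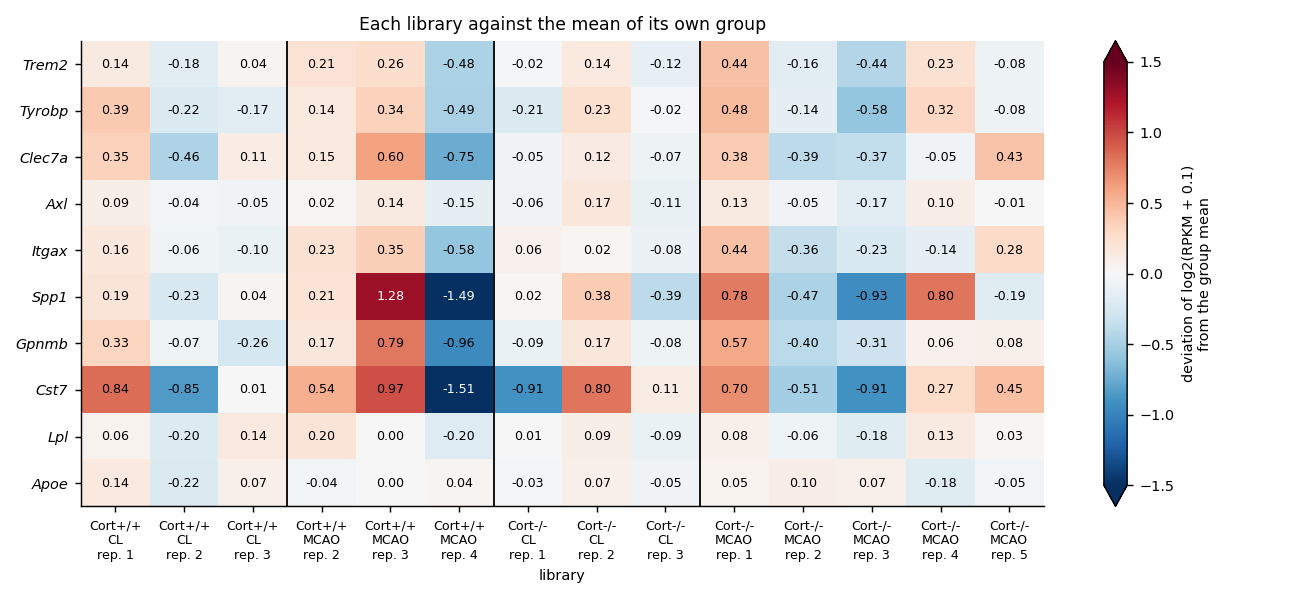
Deviation of each library from the mean of its own group in log2(RPKM + 0.1), with genes in rows and the 14 libraries in columns, red above and blue below the mean; vertical lines separate the groups. Cort+/+ MCAO replicate 4 is blue for the 9 genes other than Apoe, with Spp1 and Cst7 the furthest below, and Apoe stays pale throughout.

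General microglia and macrophage genes varied along with these libraries. The sum of 9 such genes (Aif1, Ptprc, C1qa, C1qb, C1qc, Cd14, Fcgr3, Laptm5 and Ctss) was 234, 159 and 160.4 RPKM in Cort+/+ CL and 386, 496 and 238 RPKM in Cort+/+ MCAO libraries. It was 168, 217 and 177 RPKM in Cort-/- CL and 608, 384, 298, 543 and 442 RPKM in Cort-/- MCAO libraries. Cort+/+ MCAO replicate 4 was again the lowest of its group, only just above CL replicate 1, and Cort+/+ CL replicate 1 and Cort-/- CL replicate 2 were again the highest of theirs. In Cort-/- mice 8 of these 9 genes passed the limma test, all higher, with a median log2 difference of 1.24, and in Cort+/+ mice 0 of 9 passed, with 9 at an unadjusted p under 0.05 and a median of 1.05.

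Dividing each gene by that sum separated the 10 into groups, given as a description. The mean of the sum rose from 184 to 373 RPKM in Cort+/+ and from 188 to 455 RPKM in Cort-/- mice. A gene whose RPKM stayed level, or rose less than the sum, therefore comes out lower. The share of all genes without overlap on this scale was not counted. Whether the sorting is particular to the 10 genes was not tested. Per 100 RPKM of general genes, Clec7a, Itgax, Spp1 and Cst7 remained higher in all MCAO than in all CL libraries of both genotypes. Clec7a went from between 0.064 and 0.125 to between 0.244 and 0.330 in Cort+/+ mice, and from between 0.084 and 0.091 to between 0.238 and 0.417 in Cort-/- mice. Gpnmb remained higher in Cort-/- mice (0.460 to 0.485 in CL, 0.656 to 0.921 in MCAO libraries) but overlapped in Cort+/+ mice. Trem2 overlapped in both genotypes, with 3.66 to 4.23 in CL and 3.50 to 4.04 in MCAO libraries of Cort-/- mice. Tyrobp overlapped in Cort-/- mice and was higher in Cort+/+ mice, from between 9.96 and 10.3 to between 11.1 and 12.99. Apoe was lower in all MCAO than in all CL libraries of both genotypes. This follows from the rise of the sum, since its undivided ratios of means were 0.976 (Cort+/+) and 0.927 (Cort-/-). Astrocytes also make Apoe, so its divided value is no measure of its level in microglia. Lpl and Axl were lower without overlap in Cort-/- mice, while their Cort+/+ libraries overlapped. Their MCAO means lay below their CL means in either genotype. For Lpl the ratio of these means was 0.633 (Cort+/+) against 0.599 (Cort-/-), and for Axl 0.674 against 0.570. A difference between the genotypes in these ratios was not tested. The ratio of MCAO to CL means fell from 2.32 to 0.959 for Trem2 and from 10.7 to 4.22 for Spp1 in Cort-/- mice.

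**Figure D4:**
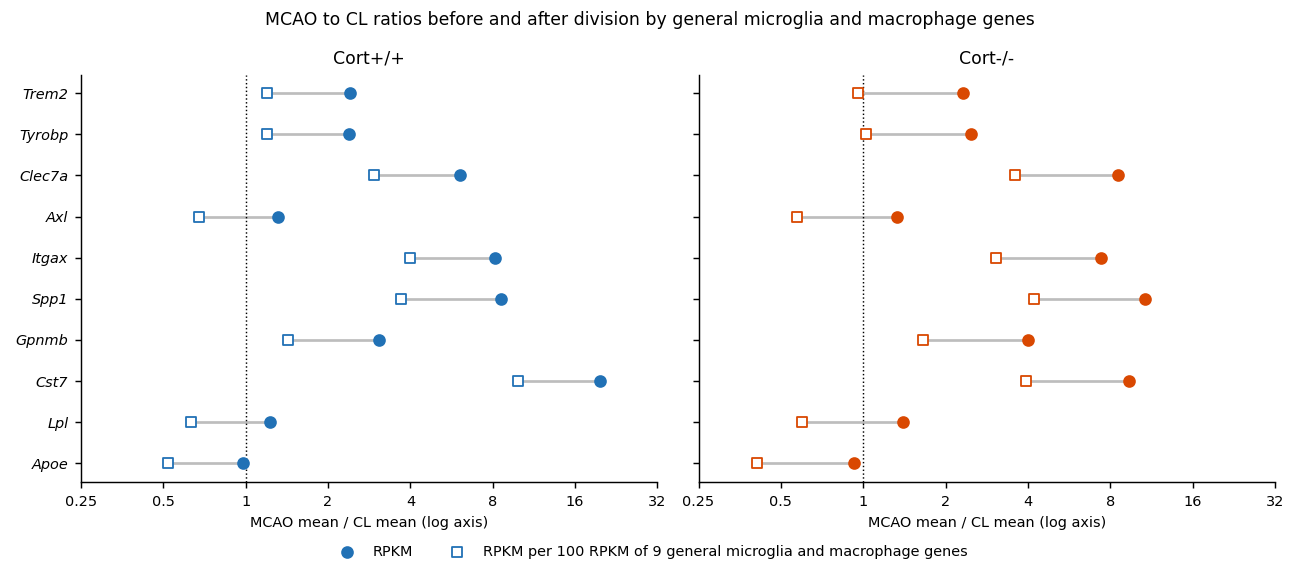
Ratio of the MCAO mean to the CL mean for each gene on a log axis, from RPKM (filled circles) and after dividing by the summed RPKM of 9 general microglia and macrophage genes (open squares), in Cort+/+ (left) and Cort-/- mice (right). After the division Clec7a, Itgax, Spp1 and Cst7 stay between 2.95 and 9.93, Trem2 and Tyrobp lie between 0.959 and 1.20, and Axl, Lpl and Apoe lie below 1.

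Homeostatic microglia genes, which fall in the textbook form of this state, had 0 genes lower in either genotype in the limma test. Of 12 listed genes 11 were in the table, and all 11 had a positive log2 difference in both genotypes. The median was 0.61 in Cort+/+ and 0.67 in Cort-/- mice. In Cort-/- mice 4 of 11 passed the limma test, all higher, against 1.34% of all genes. Among them were Cx3cr1, Csf1r and Olfml3. An unadjusted p under 0.05 was found for 9 of 11 in Cort+/+ mice (7.87% of all genes). In Cort-/- mice it was found for 10 of 11 (12.7% of all genes). With both genotypes averaged 9 of 11 passed, all higher, against 2.52% of all genes. Olfml3, a secreted protein of resting microglia, had log2 differences of 1.42 ± 0.25 (SE; adjusted p = 0.101) in Cort+/+ and 1.54 ± 0.22 (adjusted p = 0.0090) in Cort-/- mice. P2ry12, the purine receptor that marks resting microglia, had 0.33 and 0.35 and did not pass (adjusted p = 0.723 and 0.359). The list's sum went from between 122 and 126 to between 156 and 236 RPKM in Cort+/+ mice and from between 119.7 and 136 to between 177 and 259 RPKM in Cort-/- mice.

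Genes that act with the 10 were then examined by list, where counts at an unadjusted p under 0.05 stand against 7.87% of all genes in Cort+/+ and 12.7% in Cort-/- mice. Of 11 genes of Trem2 signalling, 7 were higher in Cort-/- MCAO hemispheres in the limma test and 0 in Cort+/+ mice, where 9 had an unadjusted p under 0.05. The medians were 0.90 and 0.70, and all 11 were positive in both. Vav1, an exchange factor downstream of Syk, had log2 differences of 1.14 ± 0.26 (SE; adjusted p = 0.212) in Cort+/+ and 1.39 ± 0.24 (adjusted p = 0.0156) in Cort-/- mice. Plcg2, the phospholipase that carries the Trem2 signal onward, had 0.78 ± 0.23 (adjusted p = 0.339) and 0.99 ± 0.21 (adjusted p = 0.0340). Ms4a6d had 1.61 ± 0.66 and 2.17 ± 0.59 and passed in neither (adjusted p = 0.563 and 0.0938).

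Of 24 other genes described in disease associated microglia, 15 were higher in Cort-/- MCAO hemispheres and 0 in Cort+/+ mice, where 18 had an unadjusted p under 0.05. Their medians were 1.11 and 0.89. Lgals3, galectin-3, had log2 differences of 3.13 ± 0.55 (SE; limma adjusted p = 0.101) in Cort+/+ and 3.64 ± 0.49 (adjusted p = 0.0075) in Cort-/- mice. Lilrb4a, an inhibitory myeloid receptor, had 3.33 ± 0.77 (adjusted p = 0.212) and 3.24 ± 0.69 (adjusted p = 0.0356). Cd52 had 2.01 ± 0.52 (adjusted p = 0.271) and 2.47 ± 0.47 (adjusted p = 0.0223). Ch25h, which makes a hydroxylated cholesterol, had 2.10 ± 0.54 (adjusted p = 0.263) and 1.49 ± 0.48 (adjusted p = 0.166) and passed in neither.

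Partners of osteopontin and of integrins split. Of 9 genes, 5 were higher in Cort-/- MCAO hemispheres (Cd44, Itgb1, Itgb5, Itgb2 and Itgam) and 0 passed in Cort+/+ mice, where 5 had an unadjusted p under 0.05. Cd44, a receptor of osteopontin, had log2 differences of 1.66 ± 0.31 (SE; limma adjusted p = 0.135) and 1.84 ± 0.28 (adjusted p = 0.0103). Itgb2, the beta chain that pairs with Itgax, had 1.16 ± 0.30 (adjusted p = 0.272) and 1.44 ± 0.27 (adjusted p = 0.0222). The list's Itgav, Itga4, Itga9 and Itgb3 had differences between -0.21 and 0.27 and did not pass in either genotype.

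Partners of Axl and of the lipid proteins did not pass within either genotype. With both genotypes averaged, 1 of the 5 TAM genes passed the limma test, higher, and 0 of the 9 lipid partners passed. Of 5 TAM receptors and bridging ligands 0 were called by limma in Cort-/- mice, with a median of -0.13, and 1 had an unadjusted p under 0.05. That gene was Pros1, protein S, a ligand of TAM receptors, with 0.79 ± 0.30 (SE; adjusted p = 0.515) in Cort+/+ and 1.01 ± 0.27 (adjusted p = 0.0879) in Cort-/- mice. Gas6 and the sister receptors Mertk and Tyro3 had differences between -0.18 and 0.08. Of 9 partners of lipid particles 0 were called by limma, where the medians were 0.00 (Cort+/+) and 0.02 (Cort-/-), and 0 and 1 genes had an unadjusted p under 0.05. Abca1, which loads lipid onto Apoe, had 0.35 ± 0.18 (adjusted p = 0.689) and 0.40 ± 0.16 (adjusted p = 0.294).

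**Figure D5:**
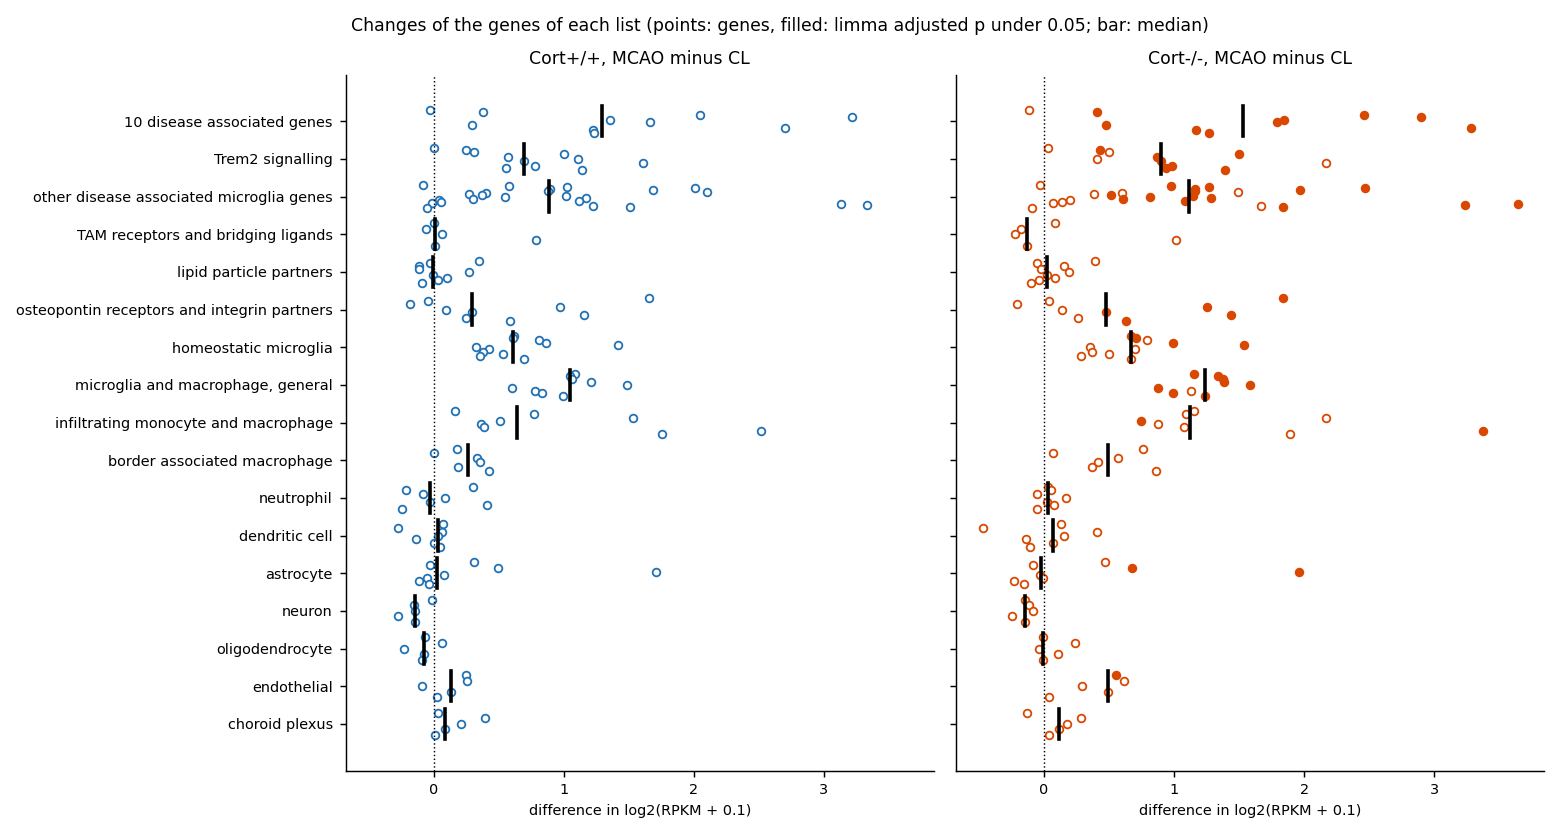
Differences in log2(RPKM + 0.1) between MCAO and CL hemispheres for each gene of 17 lists in Cort+/+ (left) and Cort-/- mice (right), with black bars at the list medians and filled points at a limma adjusted p under 0.05. The medians of the lists of disease associated genes, Trem2 signalling and microglia lie to the right of 0 in both genotypes, that of endothelial cells lies at 0.13 in Cort+/+ and 0.49 in Cort-/- mice, that of neurons lies at -0.15 in both, and the medians of oligodendrocytes, neutrophils and lipid particles lie between -0.08 and 0.03.

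Markers of other cells that could carry these genes were given the same test. Of 8 genes of infiltrating monocytes and macrophages, 2 were higher in Cort-/- MCAO hemispheres (Fn1 and Msr1) and 0 passed in Cort+/+ mice. All 8 had a positive log2 difference in both genotypes. In Cort+/+ mice their median was 0.64 and 3 had an unadjusted p under 0.05, and in Cort-/- mice the median was 1.12 and 6 did. Their sum ranged from 9.0 to 10.2 RPKM in CL and from 14.2 to 27.2 RPKM in MCAO libraries of Cort-/- mice, and from 7.18 to 11.4 and from 10.6 to 24.3 RPKM in Cort+/+ mice, where CL and MCAO libraries overlapped. Fn1, fibronectin, which other cells make too, supplied 67.1% to 87.5% of the mean sum of a group. Without it the sum of the other 7 ranged from 0.702 to 2.24 RPKM in CL and from 2.68 to 12.0 RPKM in MCAO libraries of Cort-/- mice, and from 0.650 to 2.08 and from 1.22 to 10.2 RPKM in Cort+/+ mice, again with an overlap in Cort+/+ mice only. Ccr2, a chemokine receptor found on blood monocytes, had means of 0.0541 and 0.177 RPKM in CL and MCAO hemispheres of Cort+/+ mice. In Cort-/- mice these means were 0.0622 and 0.279 RPKM. The part of infiltrating cells in the changes of the 10 genes was not tested.

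The 6 border macrophage genes and 7 neutrophil genes had 0 genes called by limma in either genotype. Of the border macrophage genes 1 had an unadjusted p under 0.05 in Cort-/- and 0 in Cort+/+ mice, and neutrophil genes had 0 in both. Neutrophil genes summed to between 4.93 and 10.5 RPKM in CL and between 4.22 and 16.4 RPKM in MCAO libraries of Cort-/- mice. Among 8 astrocyte genes, Gfap and Aqp4 were higher in Cort-/- MCAO hemispheres in the limma test, with log2 differences of 1.96 ± 0.44 (SE; adjusted p = 0.0424) and 0.68 ± 0.13 (adjusted p = 0.0232). The list's median was -0.02, 3 of its 8 genes had a positive difference, 5 had an unadjusted p under 0.05, and Slc1a2 (-0.23) and Slc1a3 (-0.16), which take up glutamate, were lower in every MCAO than in every CL library without passing the test. In Cort+/+ mice 0 of the 8 astrocyte genes passed, with 4 positive, 3 at an unadjusted p under 0.05 and a median of 0.02. Neuronal genes had a median of -0.15 in both genotypes with 0 of 5 called, and 3 in Cort+/+ and 2 in Cort-/- mice at an unadjusted p under 0.05. All 5 endothelial genes had positive differences in Cort-/- mice, with a median of 0.49 and 4 at an unadjusted p under 0.05, and Cdh5, the cadherin of endothelial junctions, passed the limma test (0.55 ± 0.13, SE; adjusted p = 0.0479). In Cort+/+ mice 4 of the 5 were positive, 0 passed, 0 had an unadjusted p under 0.05 and the median was 0.13.

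For each of the 10, the genes whose deviations from the group means followed it most closely over the 14 libraries were listed among 15055 candidates averaging 1 RPKM or more. Trem2 was nearest to Adgre1, the macrophage marker F4/80 (Pearson r = 0.975), then to Apbb1ip. Tyrobp was nearest to Ftl1 (0.993), C1qa and C1qc. Clec7a was nearest to Glipr1 (0.970) and Slc11a1, Axl to Plek (0.975), Klhl6 and Ptpn6, and both Itgax (0.925) and Gpnmb (0.952) to Mpeg1, a pore-forming protein of macrophages. Spp1 was nearest to Gm42793 (0.990), with which it shares exon bases, then to Fyb1 and Cd72, and Cst7 to Naprt (0.957), Ccl3 and Havcr2. Lpl was nearest to Rps24 (0.889) and Apoe to Nipsnap1 (0.917), neither of which is a macrophage marker. The candidates were ranked by closeness, so these values describe the libraries and carry no test.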

How the data were processed

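RNA of whole CL and MCAO hemispheres (14 libraries) was sequenced, and the authors aligned reads with reanalyzerGSE 3.0.0 to GRCm39 with GENCODE M28 and deposited RPKM values per gene and library, without pooling replicates. Gene lengths and strand use in counting are not given in the sources used here. Each value is a whole number of reads over a length and a library size, so reads were recovered from the values. They are known up to a factor shared by all libraries of a gene. Of 495656 values above 0, 100% came out whole within 0.001 reads. The scale of each gene was fitted to its own values, so this share is partly built in and is no independent check. Depths were 25989673 to 43032291 reads, and intervals cover the spread of libraries only. The table had 0 further sample columns.

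Genes above 0 in at least 2 libraries (46102 of 46904) were compared as log2(RPKM + 0.1) with limma 3.58.1 (R 4.3.3; 1 model of 4 groups, variance trend) in place of the edgeR test of the study, since RPKM are not counts, with Benjamini-Hochberg adjustment over all genes and a threshold of 0.05. The members and lists were chosen with earlier results of these data known. All 10 members were named, and in each other list up to 3 genes per comparison, those that moved furthest among genes averaging 1 RPKM or more. Genes named because they made up a count of 5 or fewer, and P2ry12, Gas6, Mertk, Tyro3, Ccr2, Xcr1, Clec9a and the integrins that did not pass, were added after their values were seen. Replicates of a group differed by 5.21 to 23.0 times the noise of sampling (chi-square over its degrees of freedom, 19 pairs). Promoters are the 250 bases before the Ensembl canonical start in GENCODE M39. Both steps were also run on simulated data, and those outcomes are not reported here. Alternatives were other pseudocounts, filters and scalings, separate models, replicate blocks, limma voom on recovered reads and leaving out each library. Python 3.11.15 with numpy 2.4.6, pandas 2.3.3 and matplotlib 3.10.9 was used.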

Additional observations from a re-analysis of the deposited data

How the results depend on the processing

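The 10 genes were compared again with another pseudocount (1 or 0.01 RPKM), another filter, another scaling, separate models, the replicate number as a block, limma voom on recovered reads, and each library left out. Of the log2 differences recomputed without leaving out a library, 542 kept their direction and their side of the threshold, 18 no longer passed, 6 newly passed and 8 changed sign. With 1 library left out, 763 kept both, 29 no longer passed, 7 newly passed and 41 changed sign. In Cort+/+ mice 0 of the 10 genes passed between MCAO and CL hemispheres, against 2 with 0.01 RPKM added, 1 of 9 when genes averaging under 0.5 RPKM were left out and 3 with limma voom, and 0 to 7 with a library left out. In Cort-/- mice 9 passed, against 8 with 0.01 RPKM added, 3 in a model of the Cort-/- libraries alone, and 2 to 9 with a library left out. Deviations of same-numbered CL and MCAO libraries had r from -0.239 to 0.316 over 5 pairs. Of these 5 CL libraries 1 correlated best with its own number, so the numbers were not taken to pair the libraries. With 3 to 5 libraries in a group, such correlations cannot decide whether CL and MCAO hemispheres came from the same mice. Each of the 6 CL libraries had a different best MCAO library (r from 0.232 to 0.404), and since no animal is named for a library, other pairings were not fitted. With genotype and replicate number together as a random effect, 9 of the 10 genes still passed in Cort-/- mice and 0 in Cort+/+ mice. With the replicate number alone as a fixed block, which joins libraries of both genotypes, 0 of the 10 passed in either genotype. In Cort-/- mice 0 of all genes then passed, against 792 without the block. The log2 differences of the 9 genes did not shrink there, such as 1.25 for Trem2 and 3.47 for Spp1, against 1.17 and 3.28. For the average of both genotypes 7 passed with the block, without Lpl (limma adjusted p = 0.126) and Axl (0.0676). With the block the log2 difference of Apoe in Cort+/+ mice was 0.026, and the interaction was -0.024 for Tyrobp and -0.046 for Itgax. Apoe in Cort+/+ mice was also positive with TPM scaling (0.0029) and limma voom (0.0095), and the interaction was -0.053 (0.01 RPKM added) and -0.12 (limma voom) for Itgax and 0.16 (1 RPKM added) for Cst7.

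Signs that turned with a library left out belonged to differences that passed no test. The Cort+/+ difference of Apoe ranged from -0.14 to 0.046. Between genotypes in CL hemispheres the ranges were -0.087 to 0.23 for Tyrobp, -0.094 to 0.088 for Apoe, -0.32 to 0.090 for Clec7a, -0.18 to 0.21 for Spp1 and -0.031 to 0.11 for Axl. In MCAO hemispheres they were -0.072 to 0.30 for Trem2, -0.18 to 0.24 for Tyrobp, -0.026 to 0.17 for Lpl, -0.10 to 1.13 for Cst7, -0.043 to 0.63 for Clec7a and -0.15 to 1.24 for Spp1. For the interaction they were -0.29 to 0.079 for Trem2, -0.21 to 0.21 for Tyrobp, -0.16 to 0.024 for Apoe, -0.16 to 0.31 for Itgax, -1.08 to 0.16 for Cst7, -0.17 to 1.22 for Spp1 and -0.051 to 0.11 for Axl. The cause of these shifts was not tested. Itgax, Cst7 and Clec7a had the fewest reads of the 10, 0 to 21 in CL libraries, which limits the precision of their CL levels.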
